A study of Cucumis sativus var. sativus with 11 samples.

Results

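Inhibited cucumber (Cucumis sativus) ovaries, whose flowers received pollen when older fruits were present, were compared with pollinated ovaries on plants without older fruits. The members of this comparison are 2 inhibited and 3 pollinated libraries, 5 of the 11 in the series, and they were chosen by their labels alone. All ovaries came from Elem Female, a gynoecious line (a line whose flowers are female) that does not set fruit without pollination. Plants were grown in a net house, pollination was with a pollinator genotype, and both groups were taken 1 day after pollination, in the early morning. Unpollinated ovaries of the same age (3 libraries) and ovaries at anthesis, the day the flower opens (3 libraries), serve here only to place the genes that differed. Each library was made from total RNA of an individual ovary. No label says that the ovaries grew on different plants, and p-values reflect only how much these single ovaries varied.

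In cucumber the ovary sits below the petals and becomes the fruit. After pollination the ovary resumes cell division and expansion, and an ovary that is not pollinated stops growing unless the line is parthenocarpic. Older fruits on a vine can hold back younger ones, a dominance that growers know as first-fruit inhibition. The comparison asks what the presence of older fruits changed in an ovary that had received pollen.

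The 5 libraries held 18158218 to 26456643 reads assigned to genes, and 20002 to 20447 of the 23248 genes of the table had at least 1 read. The libraries differed in technical measures that were not balanced between the groups. Both inhibited libraries carried 1 form of the second index sequence and all 3 pollinated libraries the other form, so index form and group cannot be told apart within these libraries. Reads not assigned to a gene made up 11.8 and 24.8% of the library in inhibited replicates 1 and 2, against 21.1, 12.4 and 20.5% in pollinated replicates 1, 2 and 3. The inhibited pair was the least alike of the 4 pairs within these 2 groups, with 795 of 18679 tested genes (4.26%) at least 2-fold apart. The pollinated pairs had 680 to 746 such genes. None of the gene identifiers matched the reference gene table (0 of 23248), so genes are given by identifier, and neither their functions nor the markers of ovary tissue could be looked up.

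Inhibited ovaries had 1222 genes at higher and 898 genes at lower levels than pollinated ovaries, at an edgeR quasi-likelihood Benjamini-Hochberg adjusted p under 0.05. These are 6.54% and 4.81% of the genes tested, or 11.3% together. In bulk tissue, fewer cells of a type and less RNA per cell cannot be told apart. The share of higher calls was larger among larger differences. Among called genes with any difference, 57.6% were higher in inhibited ovaries. At 2-fold or more, 470 genes were higher and 133 lower (2.52% and 0.712% of the genes tested), so that 77.9% were higher. At 4-fold or more the counts were 196 higher and 36 lower, and at 8-fold or more they were 88 and 10. All tested genes together had a median log2 fold change of 0.004, which the scaling of the libraries keeps small. Counts of calls depended on the setting. DESeq2 gave more, 1450 higher and 1202 lower. Among the settings with fewer were 212 higher and 159 lower with only the inhibited and pollinated libraries of a raised share of unassigned reads (over 15%), 558 higher and 346 lower without all libraries of a raised share, 418 higher and 151 lower with the second index form as a term, 283 higher and 239 lower without inhibited replicate 1, and 787 higher without pollinated replicate 3. At 2-fold or more the counts were 103 higher and 51 lower with only the libraries of a raised share, 136 higher and 66 lower without inhibited replicate 1, and 72 lower with the index term.

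Most tested genes differed by less than 2-fold within the precision of these libraries. The 95% interval of the log2 fold change lay inside 2-fold in both directions for 14735 genes (78.9%), of which 1167 were called as small differences. Another 2991 genes (16.01%) were neither called nor bounded in this way, and for these a 2-fold difference could not be seen or set aside at this number of libraries. At the other end, the whole interval lay beyond 2-fold for 221 genes that were higher and 38 that were lower in inhibited ovaries.

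The genes higher and lower in inhibited ovaries also differed in how abundant their RNA was. When tested genes were divided into 5 equal classes by mean log2 level over all libraries, in CPM (gene reads scaled to a common library size), the class with the lowest levels (median 1.37 CPM) had 280 called higher and 59 called lower. The second class (median 8.72 CPM) had 284 higher and 121 lower, and the third (23.0 CPM) had 261 higher and 175 lower. In the fourth class (48.8 CPM) the directions were nearly even, with 215 higher and 226 lower. The class with the highest levels (median 125.1 CPM) had 182 higher and 317 lower. The precision differed too: the SE of the log2 fold changes had a median of 0.45 in the lowest class and 0.090 in the highest, which meant that small differences could be called mainly among abundant genes. Of the 470 genes at least 2-fold higher, 263 were in the lowest class and 9 in the highest.

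**Figure D1:**
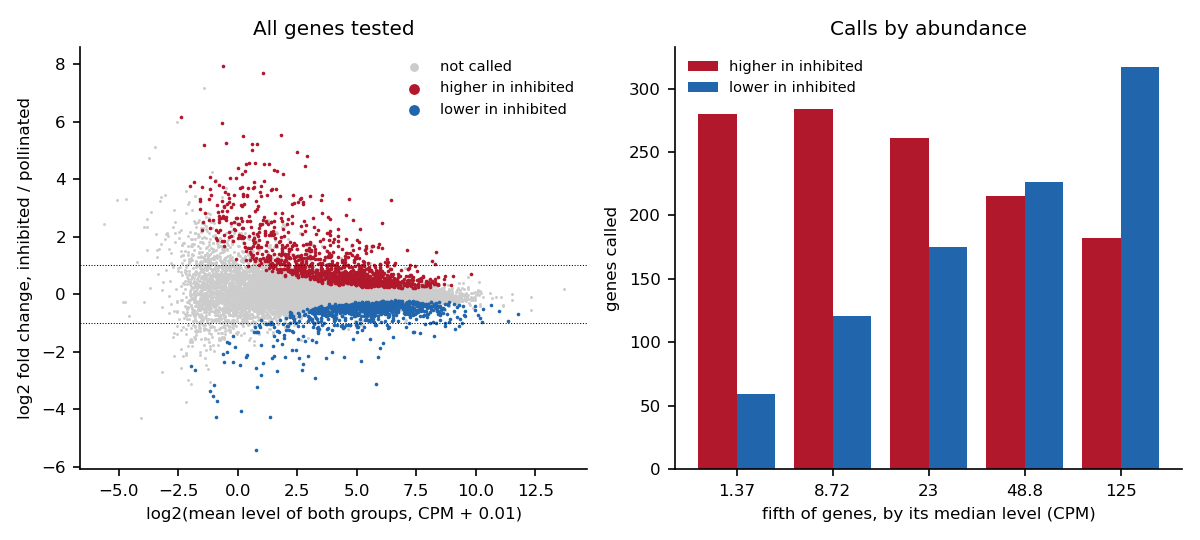
Left, log2 fold change of inhibited over pollinated ovaries against the log2 of the mean level of both groups, for each of the 18679 genes tested, with dotted lines at 2-fold. Right, genes called higher or lower in inhibited ovaries in 5 equal classes of genes by level, where the class at 1.37 CPM has 280 higher and 59 lower and the class at 125.1 CPM has 182 higher and 317 lower.

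The 470 genes at least 2-fold higher in inhibited ovaries had a median level of 5.40 CPM in inhibited and 1.51 CPM in pollinated ovaries. Of these, 191 averaged under 1 CPM in pollinated ovaries, and 30 did so in inhibited ovaries. In all they took 0.899 and 0.732% of the gene reads in inhibited replicates 1 and 2, against 0.285 to 0.286% in the pollinated libraries. Relative to the pollinated mean, their median log2 level was 1.83 in inhibited replicate 1 and 1.55 in replicate 2. The same genes had medians of 1.05 to 1.14 in the anthesis libraries and of 0.73 to 1.34 in the unpollinated libraries, the lowest of which was unpollinated replicate 3. That library had an unassigned share of 16.8%, against 12.8 and 10.9% in unpollinated replicates 1 and 2, and the bearing of this share was not tested. The pollinated libraries thus had the lowest medians of all 11, which the choice of genes that were low there favours.

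The 133 genes at least 2-fold lower had a median level of 2.88 CPM in inhibited and 9.86 CPM in pollinated ovaries. They took 0.290 and 0.360% of the gene reads in inhibited replicates 1 and 2, against 0.681 to 0.851% in the pollinated libraries. Their median log2 level relative to the pollinated mean was -1.40 and -1.29 in the inhibited libraries. It was -0.65 to -0.47 in the unpollinated and -0.86 to -0.76 in the anthesis libraries, between those of inhibited and pollinated ovaries. The choice of genes by the difference between inhibited and pollinated ovaries favours such a place. The larger set of all 898 genes called lower held more of the RNA. It took 7.17 and 7.51% of the gene reads in the inhibited libraries, against 10.1 to 11.2% in the pollinated ones. The 1222 genes called higher took 6.25 and 5.37% in the inhibited libraries, against 3.68 to 3.81% in the pollinated ones. The choice of genes by call favours these differences in share as well.

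**Figure D2:**
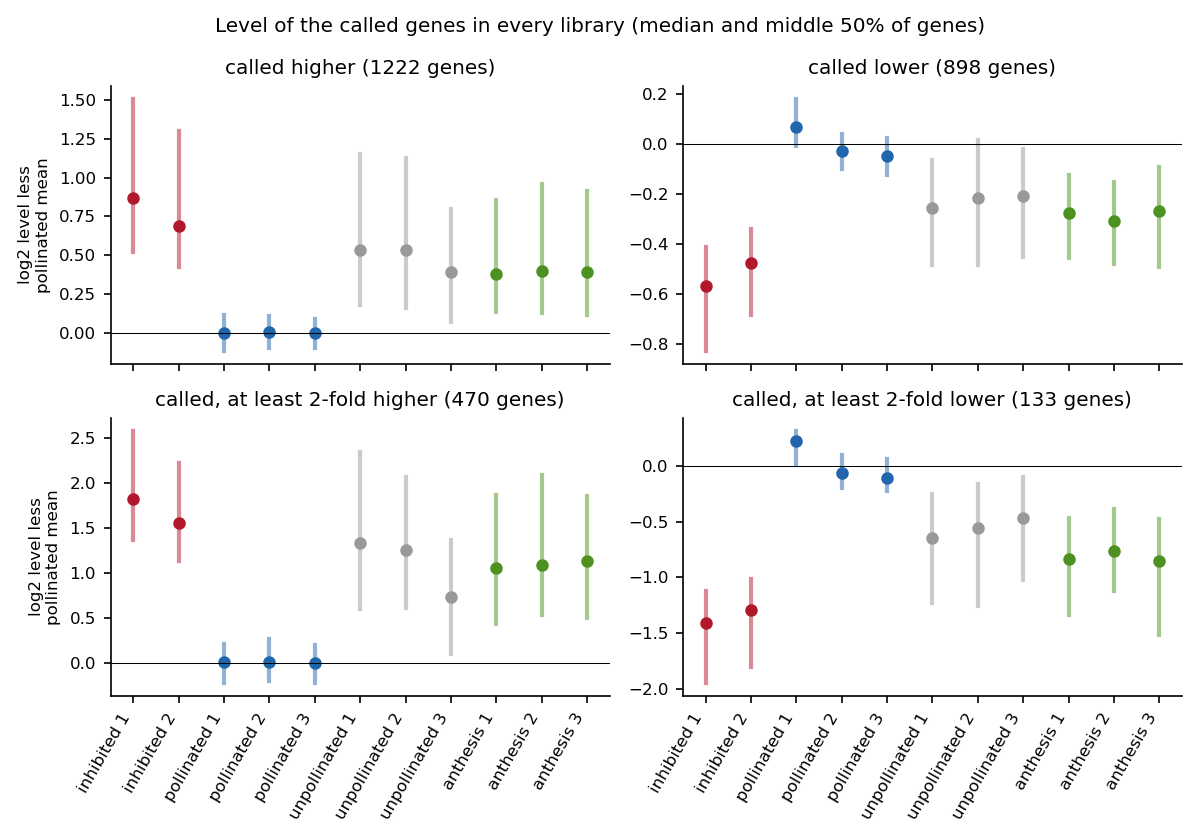
Median log2 level (points) and middle 50% of genes (bars) in every library, relative to the mean of the pollinated libraries, for the genes called higher or lower in inhibited ovaries and for those called at 2-fold or more. The 470 genes at least 2-fold higher have medians of 1.83 and 1.55 in the inhibited libraries, and the 133 genes at least 2-fold lower have -1.40 and -1.29.

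The same genes were then read in the comparisons with ovaries at anthesis and with unpollinated ovaries. These comparisons share the inhibited or the pollinated libraries that chose the genes, so the counts are given side by side as a description. Of the 470 genes, 126 lay higher and 6 lower at that threshold in the inhibited group than at anthesis, beside 4% and 3.36% of all tested genes. Between pollinated and anthesis ovaries, 18 of the 470 were higher and 290 lower, beside 7.39% and 9% of all tested genes. Against unpollinated ovaries, 113 were higher and 12 lower in inhibited ovaries (9.81% and 9.83% of all genes), and 26 were higher and 319 lower in pollinated ovaries (15% and 15.3% of all genes). In all, 294 of the 470 were called in neither comparison of inhibited ovaries, and 78 were higher in inhibited ovaries than in both anthesis and unpollinated ovaries, beside 75.5% and 1.46% of all tested genes. A call that was not made does not show that the levels were alike. Without inhibited replicate 1 the 126 became 54, the 113 became 68 and the 78 became 35, while the 290 and 319 stayed at 232 or more whichever library was left out. The 126 was also 79 and 76 without anthesis replicates 1 and 3, and the 78 was 51 without anthesis replicate 1. The 18 was 11, 8 and 8 without anthesis replicates 1 and 3 and pollinated replicate 2, and the 26 was 16 without the last of these. Leaving out unpollinated replicate 2 made the 12 a 7, and leaving out inhibited replicate 2 made it a 5, and the 6 ran from 1 without inhibited replicate 1 to 24 without unpollinated replicate 3.

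The 133 genes at least 2-fold lower were read by the same calls, with no fold limit. Inhibited ovaries had 2 of these higher and 34 lower than at anthesis (4% and 3.36% of all tested genes). Against unpollinated ovaries, 4 of these were higher and 60 lower (9.81% and 9.83% of all). Pollinated ovaries had 82 of them higher than anthesis ovaries, with the other 51 not called (7.39% of all tested genes were higher and 9% lower), and 63 higher and 6 lower than unpollinated ovaries (15% and 15.3% of all). In inhibited ovaries 22 of the 133 were lower than in both anthesis and unpollinated ovaries, and 57 were called in neither, beside 0.707% and 75.5% of all tested genes. Without anthesis replicates 1, 2 and 3 in turn the 34 became 15, 19 and 11, and the 22 became 9, 12 and 9. Without inhibited replicate 1 they became 11 and 9, and without inhibited replicate 2 the 34 became 21. The 2 became 1 or fewer when replicate 1 or 3 of the anthesis group or either inhibited library was left out, and the 4 became 1 without unpollinated replicate 2 and 2 with inhibited replicate 2 left out. The 60 was 44 or more without any 1 library, and the 6 became 8 without pollinated replicate 1 and 2 or fewer when replicate 2 or 3 of the pollinated or of the unpollinated group was left out.

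The genes named below had the largest difference in mean CPM in each direction among called genes at 2-fold or more whose libraries did not overlap. Over all tested genes, every inhibited library was above every pollinated one for 21.2%, and below for 18.8%. Csa3G145780 had 474 and 460.3 CPM in the inhibited libraries, against 176, 162 and 171 CPM in the pollinated libraries. The libraries within each group lay close together. Inhibited ovaries averaged 467 ± 9.7 CPM (SD, n = 2) and pollinated ovaries 169 ± 7.0 CPM (SD, n = 3). The log2 fold change of 1.46 had an SE of 0.17 and an edgeR adjusted p of 0.000357. Ovaries at anthesis had 451 ± 31.6 CPM (SD, n = 3) and unpollinated ovaries 435 ± 130.9 CPM (SD, n = 3). The log2 difference of inhibited from anthesis ovaries was 0.05 ± 0.17 SE and from unpollinated ovaries 0.10 ± 0.17 SE, neither of them called (edgeR adjusted p = 0.879 and 0.722). Pollinated ovaries were lower than both: their log2 difference was -1.41 ± 0.16 SE from anthesis and -1.36 ± 0.16 SE from unpollinated ovaries (edgeR adjusted p = 0.000338 and 0.000124). The log2 fold change of inhibited over pollinated ovaries was 2.13 when the second index form was a term.

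Csa2G369020 differed in another way, with its highest levels in inhibited ovaries. It had 397 and 459 CPM in the inhibited libraries, against 207, 206 and 205 CPM in the pollinated libraries. The unpollinated libraries had 195 to 219 CPM, and the anthesis libraries had 179.9 to 200.2 CPM. Every inhibited library was therefore above all 9 others. The log2 fold change was 1.05 ± 0.08 SE over pollinated, 1.17 ± 0.08 SE over anthesis and 1.03 ± 0.08 SE over unpollinated ovaries (edgeR adjusted p = 2.43e-05, 3.16e-05 and 3.29e-05). Between pollinated and unpollinated ovaries its log2 difference was -0.02 ± 0.07 SE (edgeR adjusted p = 0.864).

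Csa1G187170 was lower in inhibited ovaries, with 291 and 397 CPM against 1007, 632 and 727 CPM in the pollinated libraries. The naming rule required the lowest pollinated library to lie above the higher inhibited one. The log2 fold change of -1.20 had an SE of 0.18 and an edgeR adjusted p of 0.00167. Inhibited ovaries had 344 ± 74.6 CPM (SD, n = 2), beside 338 ± 19.4 CPM in unpollinated and 320.4 ± 25.5 CPM in anthesis ovaries (SD, n = 3 each). The log2 difference of inhibited ovaries was 0.03 ± 0.17 SE from unpollinated and 0.10 ± 0.17 SE from anthesis ovaries, neither of them called (edgeR adjusted p = 0.932 and 0.742). Pollinated ovaries were higher than both, by 1.22 ± 0.16 SE over unpollinated and 1.30 ± 0.16 SE over anthesis ovaries on the log2 scale (edgeR adjusted p = 0.000198 and 0.000433). The call was lost with the second index form as a term (log2 fold change -1.06, edgeR adjusted p = 0.088, in a range of 5.25e-11 to 0.088 over 14 settings of edgeR and DESeq2).

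Csa6G522690 was also lower in inhibited ovaries, with 295 and 498 CPM against 1009, 778 and 761 CPM in the pollinated libraries. The inhibited libraries lay far apart. The log2 fold change of -1.10 had an SE of 0.20 and an edgeR adjusted p of 0.00513. Anthesis ovaries had 688 ± 113.8 CPM and unpollinated ovaries 489 ± 23.3 CPM (SD, n = 3 each). The log2 difference of inhibited ovaries was -0.80 ± 0.20 SE from anthesis (edgeR adjusted p = 0.0355) and -0.30 ± 0.20 SE from unpollinated ovaries (edgeR adjusted p = 0.312). The call was lost without inhibited replicate 1 (log2 fold change -0.78, edgeR adjusted p = 0.0528), with the second index form as a term (edgeR adjusted p = 0.0934) and with only the inhibited and pollinated libraries of a raised unassigned share (edgeR adjusted p = 0.0732), in a range of 0.00018 to 0.0934 over 14 settings.

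**Figure D3:**
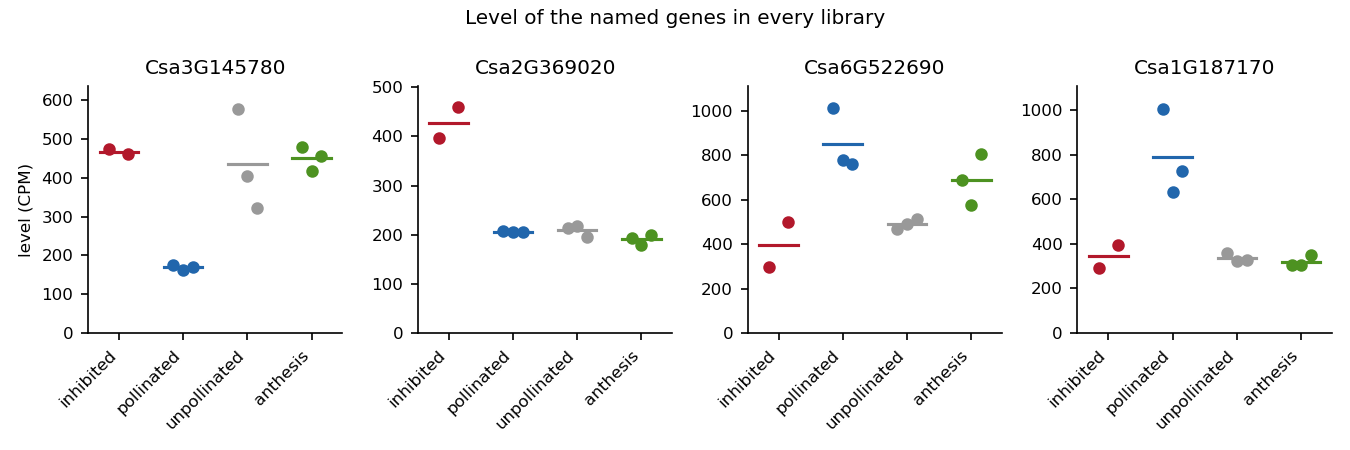
Level in CPM of the 4 named genes in every library (points) with group means (lines), on axes that start at 0. Csa3G145780 is low in the pollinated group, at 162 to 176 CPM, and Csa2G369020 is high in the inhibited group, at 397 and 459 CPM.

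Called genes were also ordered by their identifiers. No file gives their positions: it is assumed here, from the usual form of such identifiers, that the digit after Csa is the chromosome and that the numbers run along it, and the shares by chromosome, neighbours and runs all rest on this. The share of tested genes called was 11 to 11.9% on each of chromosomes 1 to 7. Of 1218 genes called higher that had a next tested gene on their chromosome, 141 (11.6%) were followed by another gene called higher, while 6.56% of all placed genes were called higher. Of 895 genes called lower, 64 (7.15%) were followed by another gene called lower, beside 4.82% of all placed genes. The sources do not say if strand was used in counting. Neighbours can be near-identical copies or overlap, so reads of 1 gene may have been counted for its neighbour. In all, 20 runs of at least 3 consecutive tested genes were called higher, with 66 genes, and 5 runs were called lower, with 17 genes. The runs of 4 or 5 genes are named here, and they were picked after their values were seen.

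The run from Csa2G069200 to Csa2G070210 on chromosome 2 holds 4 tested genes, with log2 fold changes of 3.05 to 5.24 (edgeR adjusted p = 0.00407 to 0.0408). Their summed level was 11.8 and 12.5 CPM in the inhibited libraries, against 0.215, 0.372 and 1.43 CPM in the pollinated libraries. The genes were thus barely read in pollinated ovaries. The summed level was 5.71 to 8.74 CPM in the anthesis libraries. It was 11.8 and 6.55 CPM in unpollinated replicates 1 and 2 but 0.435 CPM in replicate 3, close to the pollinated libraries. Of the 4 genes, 1 was called without inhibited replicate 1 and 2 or 3 without any other library of the compared groups. With only the libraries of a raised unassigned share 0 were called by edgeR (4 at an unadjusted p under 0.05).

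The run from Csa6G445750 to Csa6G446280 on chromosome 6 had the same order of groups. Its 5 genes summed to 77.7 and 76.1 CPM in the inhibited libraries, against 18.0, 11.9 and 15.95 CPM in the pollinated libraries. The anthesis libraries had 57.5 to 73.3 CPM, and the unpollinated libraries had 103.1, 66.7 and 19.5 CPM in replicates 1, 2 and 3. Log2 fold changes of inhibited over pollinated ovaries ran from 1.00 to 4.54 (edgeR adjusted p = 0.00235 to 0.0349). Unpollinated replicate 3 again lay near the pollinated libraries. It is a library of a raised unassigned share (16.8%), as are pollinated replicates 1 and 3 and inhibited replicate 2, and the bearing of this was not tested. Of the 5 genes, 1 was called without inhibited replicate 1 and 0 by edgeR with only the libraries of a raised unassigned share (5 at an unadjusted p under 0.05).

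A second run on chromosome 6, from Csa6G084580 to Csa6G085120, was higher in inhibited than in pollinated ovaries. Its 5 genes summed to 136 and 132 CPM in the inhibited libraries, against 56.1, 61.0 and 42.7 CPM in the pollinated libraries. The sums were 135.6 to 148.4 CPM at anthesis and 179.96 to 255.4 CPM in the unpollinated libraries. The higher unpollinated sum was mostly Csa6G085110, with a mean of 28.7 CPM in inhibited and 93.0 CPM in unpollinated ovaries, while Csa6G084580 had 85.8 CPM in inhibited and 76.3 CPM in unpollinated ovaries. The log2 fold changes were 1.06 to 4.58 (edgeR adjusted p = 0.000664 to 0.00284). All 5 genes were still called without each of the 5 inhibited or pollinated libraries in turn, and 4 without all libraries of a raised unassigned share.

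The run from Csa5G599830 to Csa5G599860 on chromosome 5 had smaller differences. Its 4 genes summed to 100.1 and 109.9 CPM in the inhibited libraries, against 63.2, 71.3 and 68.8 CPM in the pollinated libraries, with log2 fold changes of 0.52 to 2.05 (edgeR adjusted p = 0.00349 to 0.0213). Most of the sum was Csa5G599830, which averaged 91.5 CPM in inhibited and 63.8 CPM in pollinated ovaries. The longest run of genes called lower lay on chromosome 7, from Csa7G046110 to Csa7G046660. Its 5 genes summed to 223 and 260.1 CPM in the inhibited libraries, against 354, 320.1 and 303 CPM in the pollinated libraries, with log2 fold changes of -1.02 to -0.34 (edgeR adjusted p = 0.00305 to 0.0424). The sum, which is mostly Csa7G046130 (a mean of 166 CPM in inhibited ovaries), was 282 to 299 CPM in the anthesis libraries and 325 to 331 CPM in the unpollinated libraries. Of the 5 genes, 1 was called lower in inhibited than in anthesis ovaries and 4 lower than in unpollinated ovaries (3.36% and 9.83% of all tested genes). In the runs from Csa2G069200 and Csa6G445750, 0 genes were called higher in inhibited than in anthesis or unpollinated ovaries. For the runs from Csa5G599830 and Csa6G084580 these counts were 2 and 1 against anthesis, and 1 and 0 against unpollinated ovaries. Over all tested genes, 4% and 9.81% were called higher. Csa7G046640 averaged 3.02 CPM in inhibited and 1.83 CPM in anthesis ovaries, and Csa7G046660 averaged 6.02 CPM in inhibited and 5.10 CPM in anthesis ovaries. Without inhibited replicate 1, and also with the second index form as a term, 1 of the 4 genes on chromosome 5 was called. On chromosome 7 these counts were 2 and 1 of the 5 genes, and 2 without inhibited replicate 2. Without all libraries of a raised unassigned share, and also with only those of the compared groups, 1 gene of each of these runs was called.

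**Figure D4:**
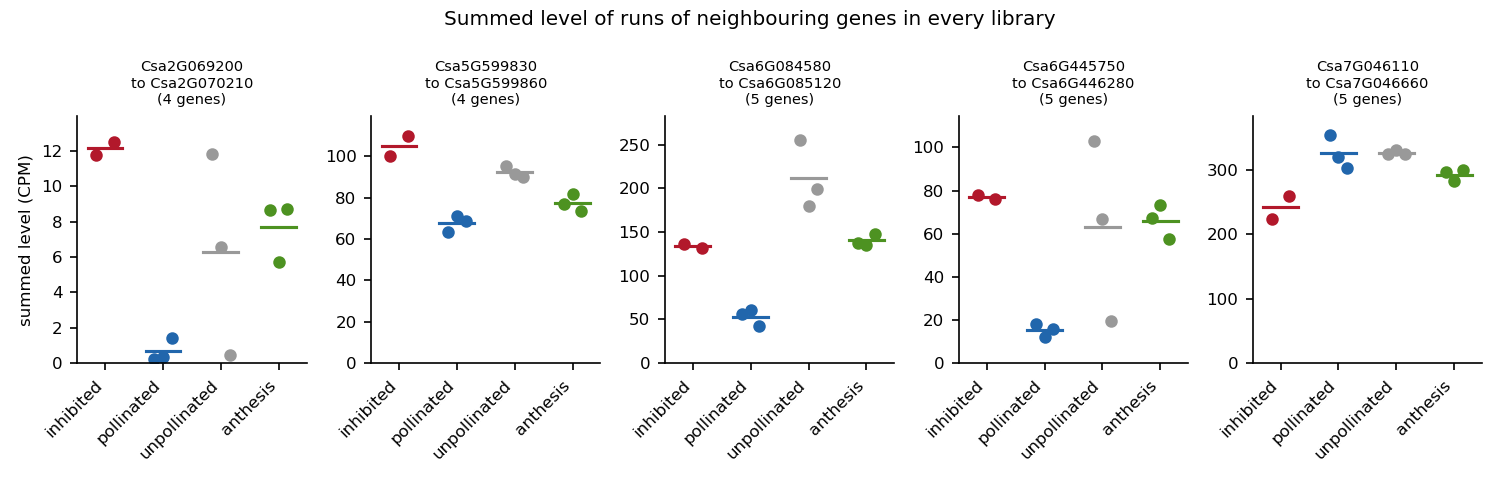
Summed level in CPM of 5 runs of 4 or 5 consecutive called genes in every library (points) with group means (lines), on axes that start at 0. In the runs from Csa2G069200 and from Csa6G445750 the sums of the inhibited libraries lie above those of the anthesis libraries, though 0 genes of either run were called higher than at anthesis. In both, unpollinated replicate 3, at 0.435 and 19.5 CPM, lies near the pollinated libraries.

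A gene was counted as read in only 1 group when every library of that group had at least 10 reads and the other group had none. This held for 1 gene in inhibited ovaries, Csa7G452230, which was outside the naming rule and picked after its values were seen, and for 0 genes in pollinated ovaries. It had 36 and 20 reads in inhibited replicates 1 and 2 and 0 reads in each pollinated library. Its mean of 1.29 ± 0.23 CPM in inhibited ovaries (SD, n = 2) was 29.6-fold an assumed floor of 3 reads over the pollinated group. This ratio leaves out the spread between ovaries and is not a lower bound. The edgeR fold change, which was estimated apart from this floor, was called (edgeR adjusted p = 0.0184). The call was lost without inhibited replicate 1 (edgeR adjusted p = 0.099) and in both subsets by unassigned share (edgeR adjusted p = 0.0883 without the raised libraries and 0.168 with only those, in a range of 0.000273 to 0.168 over 14 settings of edgeR and DESeq2). The gene had 62, 201 and 76 reads at anthesis, and 40, 15 and 2 reads in unpollinated replicates 1, 2 and 3.

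The inhibited ovaries were next set against the pollinated mean one at a time. Of the 470 genes, 459 passed 2-fold in inhibited replicate 1, 390 in replicate 2 and 379 in both, where the choice of genes favours high counts. Replicate 1 lay further from the pollinated mean for 338 of the 470 genes and replicate 2 for 132. Of the 133 lower genes, 116 passed 2-fold in replicate 1, 102 in replicate 2 and 85 in both. The replicates were at least 2-fold apart for 38 of the 470 and 14 of the 133 genes.

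Libraries could also be matched by their share of unassigned reads. Inhibited replicate 1 and pollinated replicate 2 had a low share, and inhibited replicate 2 and pollinated replicates 1 and 3 a raised one. The 470 genes had a median log2 difference of 1.80 within the libraries of a low share and of 1.57 within those of a raised share, and 358 passed 2-fold in both. The 133 genes had medians of -1.31 and -1.33, and 83 passed 2-fold in both. Over all tested genes, with no choice by call, 507 exceeded 2-fold upward and 118 downward in inhibited ovaries in both matched sets. Taken singly, 1102 were higher and 447 lower at 2-fold within the libraries of a low share. Within those of a raised share, 806 were higher and 357 lower. The first counts set 1 library against 1, and the second set 1 against the mean of 2, so they are not alike in noise. Beside them, pairs of libraries within the inhibited or pollinated group had 680 to 795 genes 2-fold apart, both directions together. Each class has only 1 inhibited library, and these counts were not tested. The part of the index form in these results was not tested beyond the model term, which rests on the unpollinated libraries alone, since only that group held both forms (1 and 2 libraries).

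**Figure D5:**
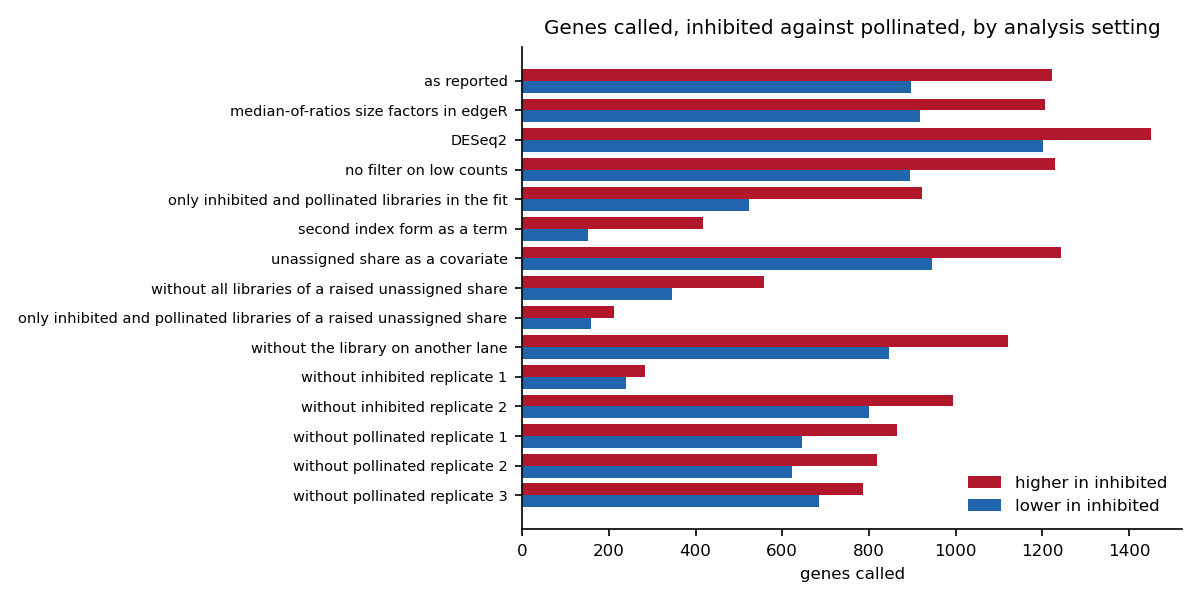
Genes called higher and lower in inhibited ovaries under the reported setting and 14 alternatives. Higher calls outnumber lower calls in all 15, from 212 against 159 with only the libraries of a raised unassigned share to 1450 against 1202 with DESeq2.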

How the data were processed

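The authors deposited whole-number read counts per gene for 11 libraries. Tools listed by the submitters' processing notes are STAR 2.5.0a, HTSeq 0.6.1p1 and, with no version, DESeq2, whose roles are unstated. Genome build and annotation: not given in the sources used here. The closing 5 lines of the table belong to no gene and entered neither library sizes nor tests. They hold 11.8 to 24.8% of the reads of the 5 libraries compared. A second deposited table holds the same counts scaled per library and was not used.

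Genes were filtered with filterByExpr by group (18679 kept), scaled by TMM and fitted with 1 mean per group over all 11 libraries, so that all groups share the estimate of the spread (edgeR 4.0.16, glmQLFit and glmQLFTest, R 4.3.3). Calls required a Benjamini-Hochberg adjusted p below 0.05 over all genes tested. Standard errors are the log2 fold change divided by the square root of F, and 95% intervals use the test's degrees of freedom. Levels are CPM on TMM-adjusted library sizes, and log2 levels used a prior count of 2. CPM are not corrected for gene length, so they compare libraries within a gene. Reads carry no molecular identifiers in the labels.

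Within groups no pair of libraries was a duplicate (chi-square per gene of 10.05 or more over genes with at least 20 reads). The pipeline was tested on simulated data, with changes set only in genes of at least 1 CPM in pollinated ovaries. It recovered 36% of 1.5-fold and 86% of 2-fold changes, with 11 false among 171 calls. No effect of index form or unassigned share was simulated. Alternatives were median-of-ratios scaling, DESeq2 1.42.0, no filter, only the compared groups, the second index form or the unassigned share as a term, subsets of libraries by that share (threshold 15%), by lane, and without each library. The rule for named genes took the 2 per direction with the largest difference in mean CPM, since no identifier had a name. They came from called, 2-fold, non-overlapping genes (470 higher and 132 lower qualified). Non-overlap alone held for 21.2% of all tested genes upward and 18.8% downward. Gene lists by function could not be used, also for want of names. The comparison and the rules were chosen with earlier results of these data known.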

Additional observations from a re-analysis of the deposited data

How the results depend on the processing

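Without each of the 5 libraries in turn, all calls ran from 522 to 1796, higher calls from 283 to 995, lower calls from 239 to 801, and calls at 2-fold or more from 136 to 426 higher and from 66 to 138 lower, against 2120, 1222, 898, 470 and 133 as reported. The lowest of each came without inhibited replicate 1 and the highest of each without inhibited replicate 2. Both of these fits leave a lone inhibited library, which is assumed to vary like the other groups. Higher calls were also 787 without pollinated replicate 3. With the second index form as a term there were 569 calls (418 higher, 151 lower, 72 at least 2-fold lower). Without all libraries of a raised unassigned share there were 904 (558 higher, 346 lower). With only those of the inhibited and pollinated libraries there were 371 (212 higher, 159 lower; 103 and 51 at 2-fold or more). In a fit of only these groups 524 genes were lower. Settings that leave out libraries have fewer samples, and otherwise the cause was not tested. Of the 2120 called genes, 402 were called without each library in turn, among them 139 of the 470 and 54 of the 133; none was called in the opposite direction in any of the 14 settings. The named genes kept their direction in all 14 settings, and no call of Csa3G145780 or Csa2G369020 was lost. With at least 5 reads in place of 10, 4 genes were read in inhibited ovaries only. With at least 4 genes in a run, 4 runs were higher and 1 lower. No paired analysis was possible because the labels give no replicate numbers shared by the groups. Of the 20 counts of the 470 and 133 genes in the other comparisons, 8 moved by less than 1.5 times without any 1 of the 11 libraries, an alternative chosen after seeing the data. Depth limits the 191 genes under 1 CPM in pollinated ovaries.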
